A study of Mus musculus with 47 samples.

Results

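Dbp, Tef, Hlf, Nfil3 and Usp2 are output genes of the circadian clock, and their 5 rows were taken by gene symbol from 24391 genes in each of 2 count tables of mouse tissue. All 5 passed the filter on low counts in 3 tissues, which were brown fat, white fat and gastrocnemius muscle, so each was tested in every tissue. The mice were C57Bl6 and were sampled on day 21. 3P10 mice carried HT1080 tumours, which come from a human fibrosarcoma line, and were given 3P10, an antibody against GFRAL, the receptor through which the circulating factor GDF15 acts. IgG1 mice carried the same tumours and were given a control antibody of that name. Both antibodies were dosed at 3 mg/kg each week from day 0. NTB mice had no tumour and no antibody is named for them, so IgG1 against NTB covers the tumour and the control antibody together. The labels give neither the time of day of harvest, nor the immune status of the hosts of the human cells, nor the white fat depot.

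There were 47 libraries. Brown fat gave 6 from 3P10, 5 from IgG1 and 6 from NTB mice, and white fat and muscle gave 5 per group. The brown fat libraries totalled 798886 to 2459761 counts, those of white fat 18621423 to 80661547 and those of muscle 24759436 to 33502175. Levels are CPM, read counts scaled to the library total times its TMM factor, and they are compared between libraries of the same gene only. Defining markers of the labelled tissues were read in every group: summed brown fat markers ran from 7549 to 12526 CPM in brown fat, summed adipocyte markers from 23613 to 33346 CPM in white fat, and summed skeletal muscle markers from 156353 to 310703 CPM in muscle. Some libraries stood apart. White fat IgG1 replicates 2 and 4 had 3281 and 3134 CPM of Ucp1, the uncoupling protein of thermogenic fat, against at most 711 CPM in the other white fat libraries. White fat IgG1 replicate 4 was also the deepest library and held 282 CPM of the skin keratin Krt14, against at most 0.818 CPM elsewhere in white fat. The S number in its title is far above those of the other white fat libraries, and the labels do not say what it stands for. Summed over 5 epidermal markers, white fat held 1.84 to 3.44 CPM in 3P10, 1.82 to 758 CPM in IgG1 and 1.77 to 4.37 CPM in NTB, and summed over 6 brown fat markers it held 175 to 1068, 129 to 4868 and 199 to 1143 CPM in these groups. Fold changes of the 5 genes in white fat that involve IgG1 are given without these 2 libraries as well. Brown fat libraries carried variable skeletal muscle RNA, with sums over 8 markers of 0.819 to 1594 CPM in 3P10, 113 to 1570 CPM in IgG1 and 535 to 2105 CPM in NTB, and with up to 7 of the 8 at 0 in a 3P10 library. As these are bulk samples, fewer cells of a type and less RNA per cell cannot be told apart.

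The mammalian clock is a transcriptional loop. The activators CLOCK and BMAL1 (gene Arntl) bind E-boxes and drive the PER and CRY repressors, and they also drive output genes that carry the rhythm to metabolism. DBP, TEF and HLF are the proline and acidic amino acid-rich (PAR) basic leucine zipper factors, which activate genes through D-boxes, and NFIL3 is a repressor at the same D-boxes whose transcript peaks at the opposite phase in liver. Usp2 encodes a deubiquitinase whose transcript cycles in many mouse tissues and responds to glucocorticoids in liver. In mouse liver the PAR factors also control drug and heme metabolism genes, among them Por, Alas1 and Cyp2b10.

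The promoters of the 5 genes were read from RefSeq on GRCm38.p6, over the 250 bases upstream of each start, and searched on both strands for the E-box CACGTG, the variant CACGTT, 3 spellings of the D-box (TTATGTAA, TTACGTAA, TTATGCAA), the ROR element, the glucocorticoid response element and the cyclic AMP response element TGACGTCA. None of these motifs contains another. All 5 genes matched an entry, with 2 start sites for Tef. The stretches with a motif match come from Tef and Hlf. Both genes rose in white fat in IgG1 against NTB, but so did Usp2, whose window held no motif match. Whether these motifs have a part in the rise was not tested. The E-box is in capitals in both Tef windows, at chr15:81802509-81802588 and chr15:81811239-81811318 on the plus strand, and the cyclic AMP response element is in capitals in the Hlf window at chr11:90390918-90390997 on the minus strand.
Tef, upstream start: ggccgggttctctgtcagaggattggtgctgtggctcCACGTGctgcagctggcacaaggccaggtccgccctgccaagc
Tef, downstream start: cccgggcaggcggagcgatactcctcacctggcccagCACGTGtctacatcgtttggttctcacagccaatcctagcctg
Hlf: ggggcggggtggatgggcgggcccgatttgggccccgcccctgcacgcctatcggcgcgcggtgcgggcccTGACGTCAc
Of 32851 RefSeq promoter windows in the table, 6.02% held the E-box and 1.55% the cyclic AMP response element. The variant E-box was in 3.85%, the D-box spellings in 0.819%, 0.113% and 0.694%, the ROR element in 0.0426% and the glucocorticoid response element in 0.00913%. No match to the 8 motifs was found in the windows of Dbp, Nfil3 and Usp2, which says only that those letters are not there. Of the clock genes described later, Ciart held 3 E-boxes, Per1 held 1 E-box and 1 D-box (TTATGCAA), and Nr1d1 held 1 variant E-box.

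White fat gave the most calls among the 5 genes, and Tef, Hlf and Usp2 stood higher in IgG1 than in both other groups. In IgG1 against NTB, 3 of the 5 genes rose (Tef, Hlf and Usp2), where 8.64% of all 14402 genes tested were called in either direction and 4.09% were called higher. In 3P10 against IgG1, 2 of the 5 fell (Hlf and Usp2), where 7.42% of all genes were called and 3.46% were called lower. Between 3P10 and NTB 0 of the 5 were called by edgeR, 0 had an unadjusted p under 0.05 and DESeq2 called 0. Over all genes edgeR called 0% there, 3.76% had an unadjusted p under 0.05 and DESeq2 called 19 genes, or 0.132%. The first and second comparison share the IgG1 libraries, so their values are set side by side and not counted as separate support. The median log2 fold change of the 5 genes was 1.24 in IgG1 against NTB, beside -0.01 over all genes, and -1.05 in 3P10 against IgG1, beside 0.01 over all genes. Summed leukocyte and fibroblast markers had lower medians in IgG1, with ranges that overlapped those of the other groups. Leukocyte markers were at 208 to 421 CPM in 3P10, 108 to 236 CPM in IgG1 and 166 to 328 CPM in NTB. Fibroblast markers were at 652 to 1387, 411 to 1066 and 913 to 1819 CPM in these groups. Endothelial markers were not lowest in IgG1, with medians of 558, 590 and 620 CPM in 3P10, IgG1 and NTB. The part of these cell types in the values of the 5 genes was not tested.

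Hlf, the hepatic leukaemia factor gene, had 17.4, 26.3, 6.98, 11.3 and 26.4 CPM in 3P10 white fat (replicates 1 to 5), 39.5, 38.6, 41.7, 74.7 and 44.3 CPM in IgG1 and 7.28, 20.3, 24.4, 7.97 and 12.997 CPM in NTB. Every IgG1 library lay above every library of the other groups, and 3P10 and NTB overlapped over most of their range. Hlf rose by 1.71 on the log2 scale (SE 0.39) in IgG1 against NTB, with an adjusted p = 0.0202 in edgeR's quasi-likelihood test, and fell by 1.43 (SE 0.39, adjusted p = 0.0398) in 3P10 against IgG1. Without the 2 IgG1 libraries highest in Ucp1 the values were 1.52 (adjusted p = 0.0904) and -1.24 (adjusted p = 0.180), so the sign held and both calls were lost with 3 IgG1 libraries left. That fit called 93 and 15 of 14620 genes in these comparisons, against 1245 and 1068 of 14402 with all libraries. Over 13 alternatives the adjusted p of Hlf ran from 3.03e-04 to 0.0904 in IgG1 against NTB and from 0.00370 to 0.180 in 3P10 against IgG1. Without IgG1 replicate 4 alone, Hlf gave 1.49 (adjusted p = 0.0516) and -1.21 (adjusted p = 0.106). The first call was also lost without NTB replicate 1 (adjusted p = 0.0532), and the second without IgG1 replicate 2 or 5 or 3P10 replicate 1, 3 or 4 (adjusted p of 0.0671 to 0.0838).

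Tef, the thyrotroph embryonic factor gene, had 194, 217, 76.0, 129 and 192 CPM in 3P10, 382, 342, 265, 391 and 297 CPM in IgG1 and 73.7, 208, 235, 69.1 and 140.3 CPM in NTB. The IgG1 libraries again overlapped with neither other group. Tef rose by 1.21 (SE 0.34, adjusted p = 0.0411) in IgG1 against NTB, and its value of -1.05 (SE 0.34) in 3P10 against IgG1 had an adjusted p = 0.0669. The rise sat close to the threshold: it was lost when NTB replicate 1, 2, 4 or 5, IgG1 replicate 2, 4 or 5, or 3P10 replicate 1 was left out, with adjusted p = 0.0897 at the highest. Without the 2 libraries highest in Ucp1, Tef gave 1.12 (adjusted p = 0.165) in IgG1 against NTB and -0.96 (adjusted p = 0.255) in 3P10 against IgG1, in each case the highest adjusted p of the 13 alternatives.

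Usp2 had 14.6, 23.9, 14.9, 14.9 and 19.6 CPM in 3P10 white fat, 32.6, 36.7, 24.8, 83.3 and 39.6 CPM in IgG1 and 11.6, 16.3, 15.9, 15.2 and 12.1 CPM in NTB. The lowest IgG1 library lay just above the highest 3P10 library, and NTB libraries were tightly grouped. Usp2 rose by 1.61 (SE 0.27, adjusted p = 0.00658) in IgG1 against NTB, and this call was lost in no fit that left out 1 library. It fell by 1.31 (SE 0.27, adjusted p = 0.0197) in 3P10 against IgG1, a call that was lost without 3P10 replicate 3 (adjusted p = 0.0547). Without the 2 IgG1 libraries highest in Ucp1, Usp2 gave 1.19 (adjusted p = 0.0249) and -0.88 (adjusted p = 0.0853). Groups that did not overlap in that direction were found for 3.86% of all genes in IgG1 above NTB and for 2.72% in 3P10 below IgG1, and for Tef, Hlf and Usp2 among the 5.

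Dbp, the D-box binding protein gene, varied most of the 5 within 3P10 and within NTB white fat. It had 279, 471, 38.3, 230.0 and 271 CPM in 3P10 white fat, 625.4, 351, 373, 399.8 and 510.3 CPM in IgG1 and 32.7, 335, 399, 41.0 and 152 CPM in NTB. IgG1 libraries were all high, while the other groups each held libraries near 40 CPM and libraries near the IgG1 level. Neither the log2 fold change of 1.24 (SE 0.64, adjusted p = 0.214) for IgG1 over NTB nor that of -0.81 (SE 0.64, adjusted p = 0.415) for 3P10 over IgG1 passed the test. Without the 2 IgG1 libraries highest in Ucp1 these were 1.39 (adjusted p = 0.341) and -0.96 (adjusted p = 0.555). The ratio of highest to lowest CPM was 12.3 within 3P10, 1.78 within IgG1 and 12.2 within NTB.

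Nfil3, the repressor, had 6.03, 6.80, 13.3, 7.94 and 7.20 CPM in 3P10 white fat, 9.80, 14.3, 4.499, 39.9 and 5.45 CPM in IgG1 and 22.8, 8.45, 5.10, 16.7 and 7.97 CPM in NTB. The groups overlapped, and IgG1 replicate 4 was far above the rest. Nfil3 gave 0.29 (SE 0.53, adjusted p = 0.752) for IgG1 over NTB, which became -0.89 (adjusted p = 0.308) without the 2 IgG1 libraries highest in Ucp1. For 3P10 over IgG1 it was -0.85 (SE 0.54, adjusted p = 0.310), and 0.33 (adjusted p = 0.753) without them. The sign of Nfil3 in white fat thus turned with 2 libraries.

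**Figure D1:**
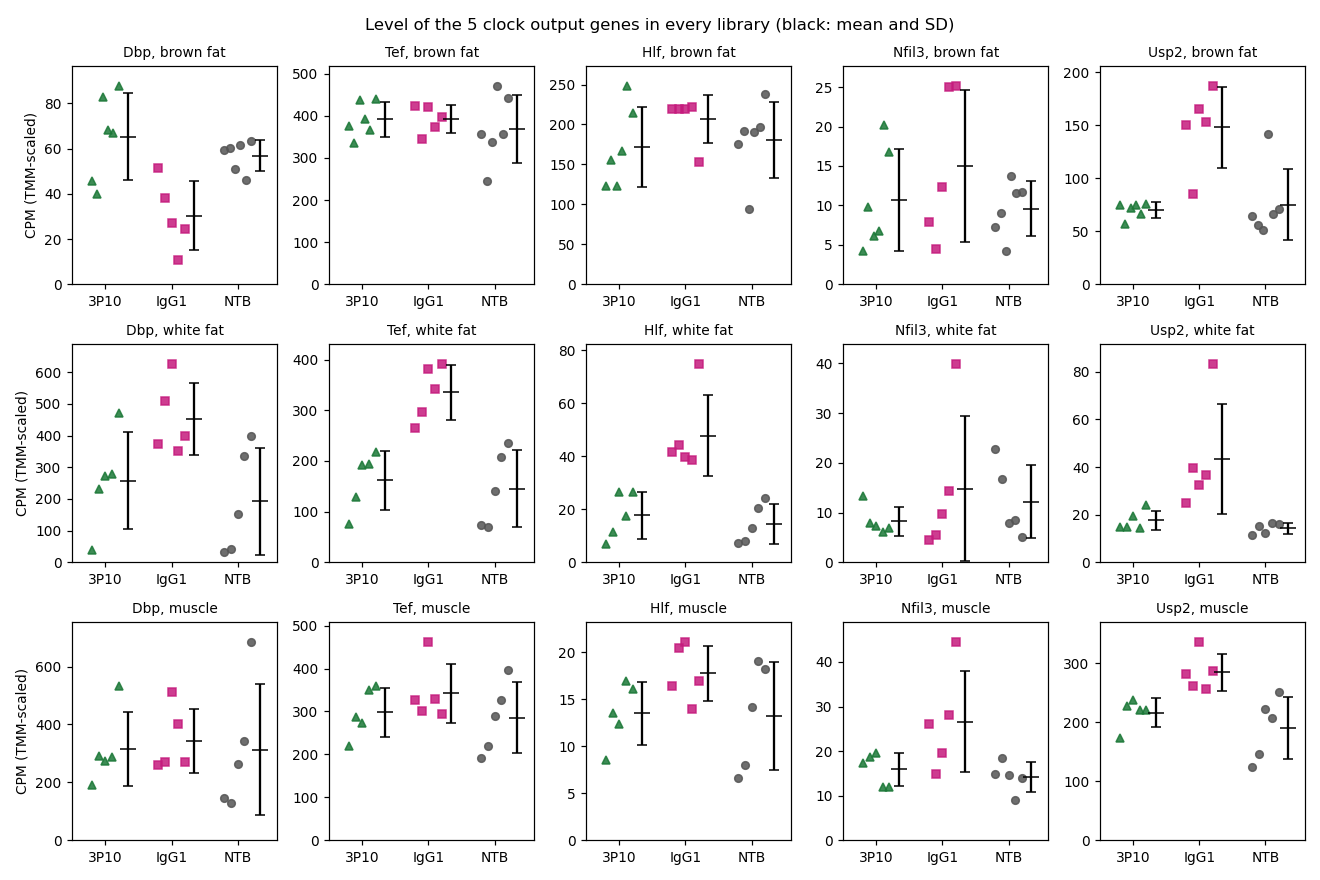
CPM (TMM-scaled, linear axis from 0) of the 5 genes in each library of brown fat, white fat and muscle, with 3P10, IgG1 and NTB from left to right and libraries in order of their number within a group. Black marks are the mean and SD. In white fat the IgG1 libraries of Tef, Hlf and Usp2 lie above all others, and in brown fat the IgG1 libraries are low in Dbp and high in Usp2.

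In brown fat Dbp and Usp2 moved in opposite directions and the other 3 genes gave no call. In IgG1 against NTB, Dbp fell and Usp2 rose, which is 2 of 5 called, beside 2.97% of the 8711 genes tested (1.86% higher, 1.11% lower). The reverse held for 3P10 against IgG1, where Dbp rose and Usp2 fell, again 2 of 5, beside 11.6% of all genes (6.05% higher, 5.58% lower). Between 3P10 and NTB 0 of 5 were called by edgeR, 0 had an unadjusted p under 0.05 and DESeq2 called 0. Over all genes edgeR called 5.75% there, 1917 of 8711 had an unadjusted p under 0.05 and DESeq2 called 6.74%.

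Dbp had a lowest, median and highest level of 40.1, 67.5 and 87.6 CPM in 3P10 brown fat. The 5 IgG1 libraries had 51.6, 38.0, 27.04, 10.7 and 24.4 CPM, and the lowest, median and highest level in NTB was 46.2, 59.7 and 63.4 CPM. IgG1 replicate 1 overlapped with both other groups and the remaining 4 IgG1 libraries lay below every library of them. Dbp fell by 0.94 (SE 0.26, adjusted p = 0.0478) in IgG1 against NTB and rose by 1.14 (SE 0.25, adjusted p = 0.00527) in 3P10 against IgG1. The fall in IgG1 was borderline and was lost in 11 of 17 fits that left out 1 library: each of the 6 NTB libraries, IgG1 replicates 3, 4 and 5, and 3P10 replicates 4 and 5, with adjusted p of 0.0536 to 0.156. The rise in 3P10 against IgG1 was lost in none of the 17.

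Usp2 had a lowest, median and highest level of 56.5, 73.5 and 76.1 CPM in 3P10 brown fat. The IgG1 libraries had 150.3, 84.98, 166, 153 and 187 CPM, all above the highest 3P10 library, and the lowest, median and highest level in NTB was 51.04, 65.1 and 142 CPM. NTB replicate 4 had the 142 CPM, and the next NTB library had 71.4 CPM. Usp2 rose by 0.96 (SE 0.21, adjusted p = 0.0185) in IgG1 against NTB and fell by 1.08 (SE 0.21, adjusted p = 0.00202) in 3P10 against IgG1. The first call was lost without IgG1 replicate 3 (adjusted p = 0.0516) or IgG1 replicate 5 (adjusted p = 0.0845), and the second in no fit that left out 1 library. Non-overlapping groups in the direction of 3P10 below IgG1 were found for 2.77% of all brown fat genes.

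The split between both genes can be read within each library as the Usp2 level over the Dbp level, compared between libraries only. It was 0.869 to 1.64 in 3P10, 2.24 to 14.2 in IgG1 and 0.933 to 2.32 in NTB brown fat, so IgG1 lay wholly above 3P10 and overlapped narrowly with NTB. This ratio was chosen after the values were seen and carries no test. In white fat and muscle the groups overlapped, at 0.0507 to 0.388 in 3P10, 0.0521 to 0.208 in IgG1 and 0.0397 to 0.370 in NTB white fat, and at 0.415 to 0.916, 0.638 to 1.09 and 0.366 to 1.13 in 3P10, IgG1 and NTB muscle.

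Tef and Hlf, which rose in white fat, did not pass the test in brown fat. Tef had 337, 385 and 439 CPM (lowest, median, highest) in 3P10, 423, 344, 421, 374 and 397 CPM in IgG1, and 245, 357 and 470.4 CPM (lowest, median, highest) in NTB. Tef gave 0.09 (SE 0.12, adjusted p = 0.788) for IgG1 over NTB. Hlf had 123, 161 and 248 CPM (lowest, median, highest) in 3P10, 219.8, 219.7, 219.7, 222 and 153 CPM in IgG1, and 93.7, 191 and 238 CPM (lowest, median, highest) in NTB. Hlf gave 0.18 (SE 0.19, adjusted p = 0.694) for IgG1 over NTB and -0.28 (SE 0.19, adjusted p = 0.371) for 3P10 over IgG1. Nfil3 was read too thinly for a firm statement, with 4 to 34 reads per library. It had 4.27, 8.27 and 20.2 CPM (lowest, median, highest) in 3P10, 7.85, 4.52, 12.4, 25.01 and 25.1 CPM in IgG1, and 4.17, 10.3 and 13.7 CPM (lowest, median, highest) in NTB, with overlapping groups and 0.65 (SE 0.41, adjusted p = 0.450) for IgG1 over NTB.

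With the skeletal muscle marker score as a term in the brown fat fit, Dbp gave -0.76 (adjusted p = 0.0556) and Usp2 0.92 (adjusted p = 0.0374) in IgG1 against NTB. The values for 3P10 over IgG1 were 1.24 (adjusted p = 3.05e-04) and -1.08 (adjusted p = 0.00152). The summed brown fat markers ran at 9254 to 12526 CPM in 3P10, 7549 to 8070 CPM in IgG1 and 7939 to 9678 CPM in NTB, and their part in the Dbp and Usp2 values was not tested. Brown fat libraries are numbered group by group, so the order of the libraries and the group cannot be told apart.

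**Figure D2:**
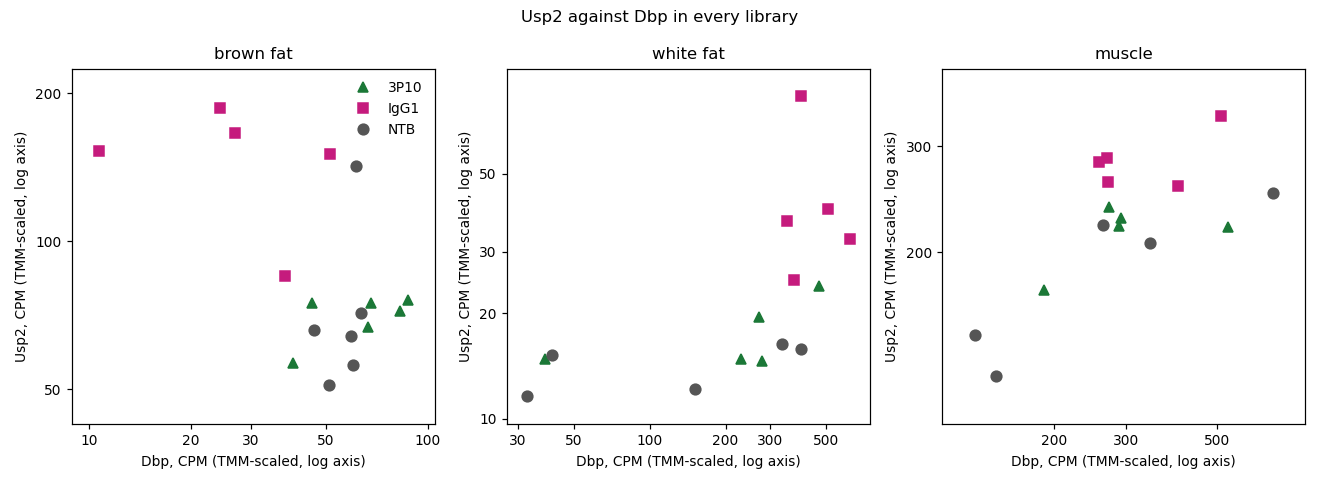
Usp2 CPM against Dbp CPM in each library (both axes logarithmic, TMM-scaled), in brown fat, white fat and muscle. In brown fat the IgG1 libraries lie to the upper left, with Usp2 of 84.98 to 187 CPM at Dbp of 10.7 to 51.6 CPM. In white fat the IgG1 libraries lie to the upper right, with Usp2 of 24.8 to 83.3 CPM at Dbp of 351 to 625.4 CPM.

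In muscle 0 of the 5 genes were called by edgeR in any comparison. In IgG1 against NTB, 2 had an unadjusted p under 0.05 (Nfil3 and Usp2) and DESeq2 called both. Of all 13283 genes, edgeR called 5.60%, 20.8% had an unadjusted p under 0.05 and DESeq2 called 9.98%. Nfil3 and Usp2 also had an unadjusted p under 0.05 in 3P10 against IgG1 and DESeq2 called 0. Over all genes edgeR called 0.211% there, 10.8% had an unadjusted p under 0.05 and DESeq2 called 2.14%. Between 3P10 and NTB 0 of the 5 had an unadjusted p under 0.05 and DESeq2 called 0 of them. Over all genes edgeR called 0% there, 4.24% had an unadjusted p under 0.05 and DESeq2 called 15 genes, or 0.113%.

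Usp2 had 221, 221, 173, 228 and 238 CPM in 3P10 muscle, 336, 257, 282, 287 and 262 CPM in IgG1 and 125, 207, 251, 146 and 222 CPM in NTB. Every IgG1 library lay above every other library, narrowly so over NTB replicate 3. Its value was 0.58 (SE 0.18, adjusted p = 0.0647 in edgeR, adjusted p = 0.0177 in DESeq2) in IgG1 against NTB and -0.40 (SE 0.18, adjusted p = 0.423) in 3P10 against IgG1. Leaving out NTB replicate 3 brought the first value past the threshold (adjusted p = 0.0243). Over all muscle genes, 3.22% had IgG1 wholly above NTB and 1.42% had 3P10 wholly below IgG1.

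Nfil3 had 11.9, 11.8, 17.4, 18.6 and 19.7 CPM in 3P10 muscle, 19.6, 28.1, 26.03, 44.5 and 14.8 CPM in IgG1 and 14.8, 8.96, 13.8, 18.5 and 14.6 CPM in NTB. IgG1 was higher on average and its lowest library lay within the range of both other groups. The value was 0.91 (SE 0.26, adjusted p = 0.0538 in edgeR, adjusted p = 0.0170 in DESeq2) in IgG1 against NTB and -0.74 (SE 0.26, adjusted p = 0.300) in 3P10 against IgG1. The first value passed the threshold without IgG1 replicate 1 (adjusted p = 0.0320) or 5 (adjusted p = 0.0260).

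Dbp, Tef and Hlf showed small differences against a wide spread within groups. Dbp had 289, 531, 189, 292 and 273 CPM in 3P10, 512, 403, 258, 269 and 271 CPM in IgG1 and 144, 344, 685, 128 and 264 CPM in NTB muscle. The NTB libraries spanned more than the IgG1 libraries at both ends, and the log2 fold change was 0.13 (SE 0.40, adjusted p = 0.897) for IgG1 over NTB. Tef ranged over 219 to 359 CPM in 3P10, 294 to 462 CPM in IgG1 and 192 to 398 CPM in NTB, with a value of 0.26 (SE 0.20, adjusted p = 0.511). Hlf ranged over 8.5002 to 16.96 CPM in 3P10, 13.97 to 21.1 CPM in IgG1 and 6.61 to 19.02 CPM in NTB, with a value of 0.43 (SE 0.27, adjusted p = 0.396).

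**Figure D3:**
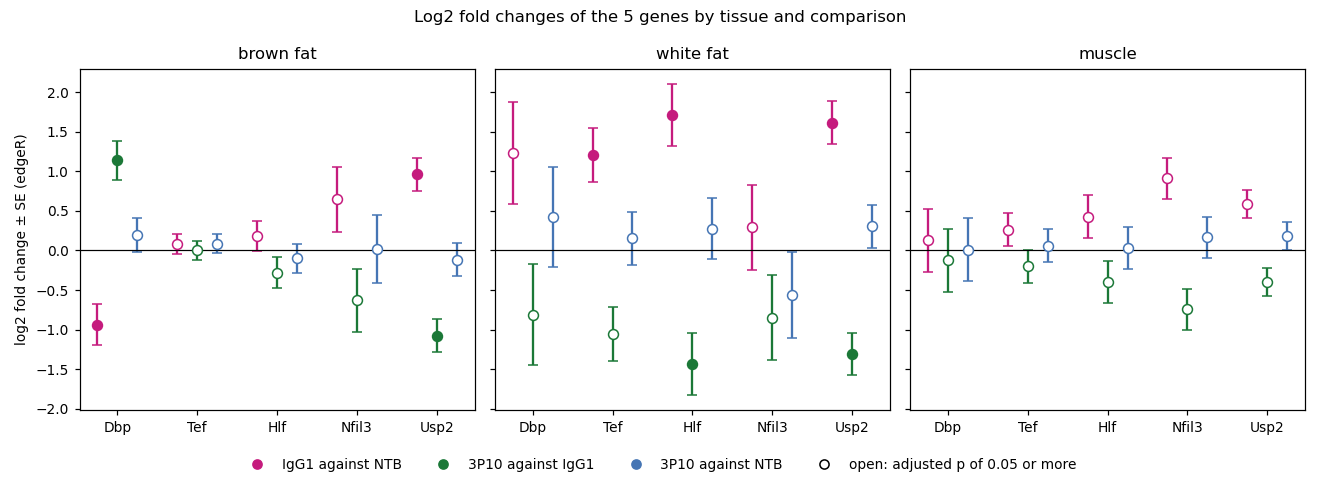
Log2 fold change ± SE (edgeR) of the 5 genes for IgG1 over NTB, 3P10 over IgG1 and 3P10 over NTB, in brown fat, white fat and muscle. Filled points had an adjusted p under 0.05 over all genes of the tissue. In 3P10 against NTB none of the 5 genes has a filled point in any tissue.

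White fat and muscle libraries came from 1 table and 1 kit, so the difference between their effects was tested as an interaction. That fit took all libraries as independent, although both tissues carry the same library numbers. A block for the shared number gave no call among the 5 genes. Over all 14898 genes it called 21 for IgG1 over NTB and 5 for 3P10 over IgG1. Without the block, edgeR passed 0 of the 5 genes in any of the 3 comparisons, beside 1.11% of 14898 genes for IgG1 over NTB and 0.208% for 3P10 over IgG1. The value nearest the threshold was Usp2 in IgG1 against NTB, larger in white fat than in muscle by 1.06 (SE 0.33, adjusted p = 0.0988), and DESeq2 called it (adjusted p = 0.0443). Without the 2 white fat IgG1 libraries highest in Ucp1 it was 0.65 (adjusted p = 0.424 in edgeR, adjusted p = 0.333 in DESeq2). Of all 15144 genes, edgeR then called 0 in that comparison and DESeq2 168. Hlf gave 1.31 (SE 0.49, adjusted p = 0.173) and Tef 0.97 (SE 0.41, adjusted p = 0.232), and without those libraries 1.14 (adjusted p = 0.466) and 0.90 (adjusted p = 0.518). Tef, Hlf and Usp2, 3 of the 5, had an unadjusted p under 0.05 between IgG1 and NTB as well as between 3P10 and IgG1, and DESeq2 called 0 in the second. Of all 14898 genes, 2314 and 2233 had such a p in these comparisons, and DESeq2 called 3.73% and 2.77%. Between 3P10 and NTB 0 had an unadjusted p under 0.05 and DESeq2 called 0, where 2.26% of all genes had such a p and DESeq2 called 0.0134%. A lack of a call in muscle is therefore not a shown difference from white fat. The Usp2 levels of the tissues, scaled separately, did not overlap, at 11.6 to 83.3 CPM over all white fat libraries and 125 to 336 CPM over all muscle libraries, and this was not tested.

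Within 3P10 and NTB, the levels of Dbp, Tef and Hlf followed the library number in the sample titles. White fat and muscle libraries carry the same numbers, between 1 and 23, interleaved over the groups, and the labels do not say what the number stands for. In white fat, the 3P10 and NTB libraries with the lowest numbers had the lowest Dbp: number 1 (NTB) had 32.7 CPM, number 3 (3P10) 38.3 CPM and number 4 (NTB) 41.0 CPM. Number 10 (NTB) had 335 CPM, number 15 (3P10) 471 CPM and number 16 (NTB) 399 CPM. Over the 10 libraries of 3P10 and NTB, log2 CPM of Dbp against the number gave Pearson r = 0.90 (adjusted permutation p = 0.00125) and Spearman rho = 0.96 (adjusted permutation p = 0.00100), and r = 0.87 without the 2 libraries farthest from the median number.

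Tef and Hlf followed the number in both tissues, and Dbp did in muscle as well. Tef gave r = 0.92 and rho = 0.95 in white fat and r = 0.96 and rho = 0.95 in muscle. Hlf gave r = 0.90 and rho = 0.84 in white fat and r = 0.87 and rho = 0.87 in muscle, and Dbp gave r = 0.92 and rho = 0.87 in muscle. All adjusted permutation p of these 5 relations were at most 0.00307 for r and 0.00951 for rho, and r stayed at 0.80 or above without the 2 farthest libraries. The raw permutation p of r for Tef in muscle, 1e-05, is the smallest that 100000 resamples can give. Nfil3 ran the other way in white fat, with r = -0.88 and rho = -0.89 (adjusted permutation p = 0.00161 and 0.00392), and gave r = -0.51 in muscle (adjusted permutation p = 0.156). Usp2 gave r = 0.62 in white fat (adjusted permutation p = 0.0633) and r = 0.78 in muscle (adjusted permutation p = 0.0106), where rho was 0.64 (adjusted permutation p = 0.0807). These relations were looked for after the values were seen, and p was adjusted over 25 of them. IgG1 libraries, numbered 2, 8, 11, 14 and 23, had no part in them. In that order IgG1 Tef was 265, 297, 382, 342 and 391 CPM in white fat. In muscle it was 326, 300, 462, 330 and 294 CPM. IgG1 Hlf was 41.7, 44.3, 39.5, 38.6 and 74.7 CPM in white fat. In muscle it was 16.4, 20.4, 21.1, 13.97 and 16.9 CPM.

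So that the relations do not rest on the libraries numbered 14 or higher, they were repeated within the 8 3P10 and NTB libraries numbered 12 or lower. Tef gave r = 0.95 (adjusted p = 0.00276), Hlf r = 0.92 (adjusted p = 0.00407) and Dbp r = 0.82 (adjusted p = 0.0201) in muscle, by exact permutation tests. Their rho was 0.90 (adjusted p = 0.00951), 0.88 (adjusted p = 0.0129) and 0.74 (adjusted p = 0.0716, exact), so the rank relation of Dbp in muscle did not pass. In white fat Tef gave r = 0.93, Hlf 0.89, Dbp 0.91 and Nfil3 -0.90, with adjusted p of 0.00407 to 0.00798 by exact permutation tests, and rho of 0.90, 0.88, 0.95 and -0.81 with adjusted p of 0.00407 to 0.0363. Usp2 gave r = 0.49 and rho = 0.38 in white fat (adjusted p = 0.224 and 0.375, exact) and r = 0.80 and rho = 0.60 in muscle (adjusted p = 0.0216 and 0.157, exact). Nfil3 in muscle gave r = -0.50 and rho = -0.38 (adjusted p = 0.224 and 0.375, exact). Too few libraries were numbered 14 or higher for a value of their own.

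White fat and muscle were also set against each other at the same number. Dbp, Tef and Hlf followed the number in each tissue, so these values are no separate support for them. Muscle Dbp against white fat Dbp of the same number gave r = 0.89 and rho = 0.92 over 10 numbers (adjusted permutation p = 0.00125 and 0.00340), and Tef gave r = 0.93 and rho = 0.94 (adjusted permutation p = 0.00125 and 0.00150). Hlf gave r = 0.83 and rho = 0.62 (adjusted permutation p = 0.00605 and 0.0820). For Nfil3 and Usp2 r was 0.31 and 0.47 (adjusted permutation p = 0.381 and 0.193). Arntl, which encodes BMAL1, ran opposite to Dbp: it had 18.9 CPM at number 1, 17.96 at number 3 and 15.1 at number 4 in white fat, against 2.22 at number 10, 1.36 at number 15 and 2.57 at number 16.

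The IgG1 white fat library with the lowest number did not share the low Dbp level of its neighbours in number. Number 3 (3P10) had 38.3 CPM of Dbp, number 2 (IgG1) 373 CPM and number 1 (NTB) 32.7 CPM. At higher numbers, 9 (3P10) had 271 CPM, 8 (IgG1) 510.3 CPM and 7 (NTB) 152 CPM, and 12 (3P10) had 279 CPM, 11 (IgG1) 625.4 CPM and 10 (NTB) 335 CPM. Number 15 (3P10) had 471 CPM, 14 (IgG1) 351 CPM and 16 (NTB) 399 CPM. IgG1 was thus above its neighbours at numbers 2, 8 and 11 and not at number 14. In muscle, Dbp was 189 CPM in number 3 (3P10), 258 CPM in number 2 (IgG1) and 144 CPM in number 1 (NTB). It was 273, 271 and 264 CPM at numbers 9 (3P10), 8 (IgG1) and 7 (NTB), and 289, 512 and 344 CPM at numbers 12 (3P10), 11 (IgG1) and 10 (NTB). Numbers 15 (3P10), 14 (IgG1) and 16 (NTB) had 531, 403 and 685 CPM, so muscle IgG1 was above both neighbours at numbers 2 and 11 only.

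When the number was a linear term beside the group in the edgeR fit, the number itself called 0% of genes in white fat, 32.7% in muscle and 0.0574% in brown fat. Dbp changed with it in muscle, by 0.08 log2 per number (SE 0.02, adjusted p = 0.0164), and Arntl by -0.12 (SE 0.03, adjusted p = 0.0101). The muscle values of Tef and Hlf were 0.03 and 0.04 per number (adjusted p = 0.0905 and 0.0882). In white fat Tef and Hlf gave 0.07 and 0.08 per number (adjusted p = 0.170 for both) and Dbp 0.12 (adjusted p = 0.295). With that term the white fat group values of IgG1 against NTB were 1.06 for Tef (adjusted p = 0.0261), 1.52 for Hlf (adjusted p = 0.0126), 1.27 for Usp2 (adjusted p = 0.00518) and 1.33 for Dbp (adjusted p = 0.161). In 3P10 against IgG1 they were -0.95 for Tef (adjusted p = 0.0357), -1.31 for Hlf (adjusted p = 0.0217) and -1.06 for Usp2 (adjusted p = 0.00800). Without the 2 IgG1 libraries highest in Ucp1, the same fit gave 1.33 for Tef (adjusted p = 0.0128), 1.79 for Hlf (adjusted p = 0.0133), 1.203 for Usp2 (adjusted p = 0.00854) and 2.099 for Dbp (adjusted p = 0.0480) between IgG1 and NTB. Between 3P10 and IgG1 it gave -1.27 for Tef (adjusted p = 0.0293), -1.63 for Hlf (adjusted p = 0.0356), -0.96 for Usp2 (adjusted p = 0.0305) and -1.70 for Dbp (adjusted p = 0.121). Of all 14620 genes, it called 162 and 64 in these comparisons. The linear number was added as a term after the values were seen. In muscle the linear number left Nfil3 and Usp2 without a call in IgG1 against NTB. A term for libraries numbered 14 or higher gave Nfil3 0.82 (adjusted p = 0.0341) and Usp2 0.57 (adjusted p = 0.0213) there. That fit called 2455 of all 13283 genes, against 744 with the group alone. What lies behind the number was not tested.

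**Figure D4:**
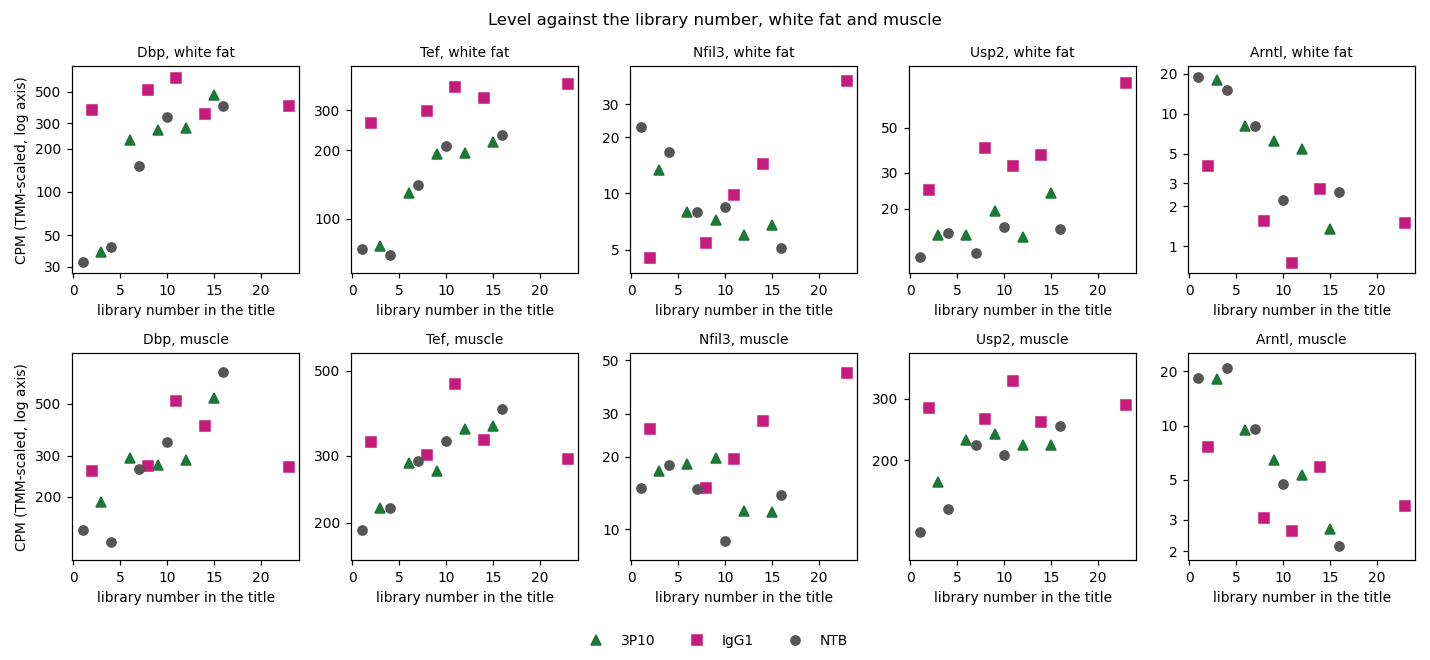
CPM (TMM-scaled, log axis) of Dbp, Tef, Nfil3, Usp2 and Arntl against the library number in the sample titles, in white fat and muscle, with 3P10 as triangles, IgG1 as squares and NTB as circles. In white fat Dbp of 3P10 and NTB climbs with the number (r = 0.90) and Arntl runs the other way, while the IgG1 libraries lie between 351 and 625.4 CPM of Dbp.

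The 5 genes were also set against each other within each tissue. Over all libraries of a tissue, Pearson r of log2 CPM between Dbp and Tef was 0.93 in white fat and 0.90 in muscle (n = 15 each) and 0.11 in brown fat (n = 17). Tef and Hlf gave 0.96, 0.89 and 0.13 in white fat, muscle and brown fat, and Hlf and Usp2 gave 0.87, 0.87 and 0.32. Dbp and Usp2 gave 0.58 in white fat, 0.70 in muscle and -0.58 in brown fat. With each group centred on its own mean this pair gave 0.27, 0.80 and -0.02 in white fat, muscle and brown fat. Centring left Dbp and Tef at 0.95, 0.91 and 0.27, Tef and Hlf at 0.92, 0.88 and 0.12, Hlf and Usp2 at 0.60, 0.87 and 0.12, and Dbp and Nfil3 at -0.59, -0.38 and -0.31 in these tissues. Dbp and Nfil3 gave -0.45, -0.14 and -0.39 in white fat, muscle and brown fat. These values describe libraries that share groups, depth and number, and brown fat counts are far lower, with 12 to 201 reads of Dbp per library.

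The genes whose pattern was most like the mean of Dbp, Tef and Hlf were found by Pearson r of log2 CPM. In white fat (15 libraries, 10683 candidate genes) they were the clock genes Per3 (0.98) and Nr1d2 (0.97), the phosphatidate phosphatase gene Lpin1 (0.96), Pcsk4 (0.96) and the clock repressor gene Ciart (0.95). The least alike were Dtx4 (-0.96), Npas2 (-0.93) and Arntl (-0.92), and the last 2 encode a partner and the core of the activator complex. In muscle (15 libraries, 8878 candidates) they were the kinase gene Mylk4 (0.96), Per2 (0.92), Per3 (0.90), Tspan4 (0.90) and Stk35 (0.89), with Arntl (-0.92), Gtf2ird1 (-0.89) and Senp2 (-0.86) at the other end. Brown fat (17 libraries, 8708 candidates) gave Btrc (0.74), Ubfd1 (0.72), Lrif1 (0.71), Fry (0.71) and Dlc1 (0.70), and Rexo4, Celf1 and Aldoc at -0.74, -0.73 and -0.73. There r was 0.11 for Dbp and Tef, -0.12 for Dbp and Hlf and 0.13 for Tef and Hlf. Their mean is thus no shared pattern in brown fat, and the genes most like it are listed only. No clock gene of the list stood among the brown fat genes named, and Per3 was at rank 39 with r = 0.60. Usp2 was at rank 9 in muscle, 140 in white fat and 2762 in brown fat.

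Other clock genes were read from a list of 17. In white fat, 4 rose in IgG1 against NTB (Per1, Per2, Cry1 and Ciart) and 1 fell (Clock), with a list median of 0.31 beside -0.01 over all genes. For 3P10 over IgG1 those 4 fell and Clock rose, with a median of -0.18 beside 0.01. Among all white fat genes, edgeR calls made up 8.64% for the first comparison and 7.42% for the second. Ciart had 2.74, 4.08, 0.776, 2.41 and 4.07 CPM in 3P10, 15.3, 14.3, 11.3, 26.8 and 16.8 CPM in IgG1 and 1.101, 3.44, 8.94, 0.603 and 1.59 CPM in NTB white fat. It rose by 2.41 (SE 0.59, adjusted p = 0.0260) in IgG1 against NTB, with no overlap. Per1 had 36.0, 41.0, 31.9, 21.4 and 39.9 CPM in 3P10, 93.7, 85.3, 127, 138 and 72.2 CPM in IgG1 and 39.0, 52.1, 53.0, 22.3 and 39.1 CPM in NTB, and it fell by 1.602 (SE 0.24, adjusted p = 0.00602) in 3P10 against IgG1. Without the 2 IgG1 libraries highest in Ucp1, Per1 was called in both comparisons (adjusted p = 0.0493 and 0.0469), and the other 4 were called in neither, with the signs kept and adjusted p of 0.0558 to 0.154. That fit called 93 and 15 of all 14620 genes in these comparisons. Arntl gave -2.15 (SE 0.68, adjusted p = 0.0603) in IgG1 against NTB. Nr1d1, the REV-ERB alpha repressor gene, gave -0.03 (SE 0.29, adjusted p = 0.960).

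In muscle, 4 of the 17 rose in IgG1 against NTB (Per1, Cry2, Rora and Csnk1e) and 0 fell, with a median of 0.25 beside 0.01. Between 3P10 and IgG1, 1 fell (Per1) and 0 rose. Of all muscle genes, 5.60% were called in the first comparison and 0.211% in the second. Per1 had 46.2, 33.2, 41.4, 44.0 and 32.6 CPM in 3P10, 101, 69.7, 112.1, 104 and 92.3 CPM in IgG1 and 32.5, 51.3, 58.6, 25.9 and 48.1 CPM in NTB muscle. It was the only gene of the list whose call was made in both comparisons in both white fat and muscle. In brown fat 15 of the 17 were tested, without Arntl and Npas2. There, 1 rose in IgG1 against NTB (Rora, 0.45, SE 0.11, adjusted p = 0.0272), and in 3P10 against IgG1 1 rose (Nr1d2, 0.57) and 2 fell (Csnk1e, -0.59, and Rora, -0.41). Of all brown fat genes, 2.97% and 11.6% were called in these comparisons. The list medians were -0.04 and 0.12, beside -0.01 over all genes in both. Nr1d1 had 23.3, 32.97 and 39.6 CPM (lowest, median, highest) in 3P10 brown fat, 41.5, 28.9, 7.89, 7.15 and 6.65 CPM in IgG1 and 13.9, 35.5 and 46.2 CPM (lowest, median, highest) in NTB. The IgG1 libraries with the least Dbp, replicates 3 to 5, were also those with the least Nr1d1, and Nr1d1 gave -0.90 (SE 0.38, adjusted p = 0.200) for IgG1 over NTB.

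**Figure D5:**
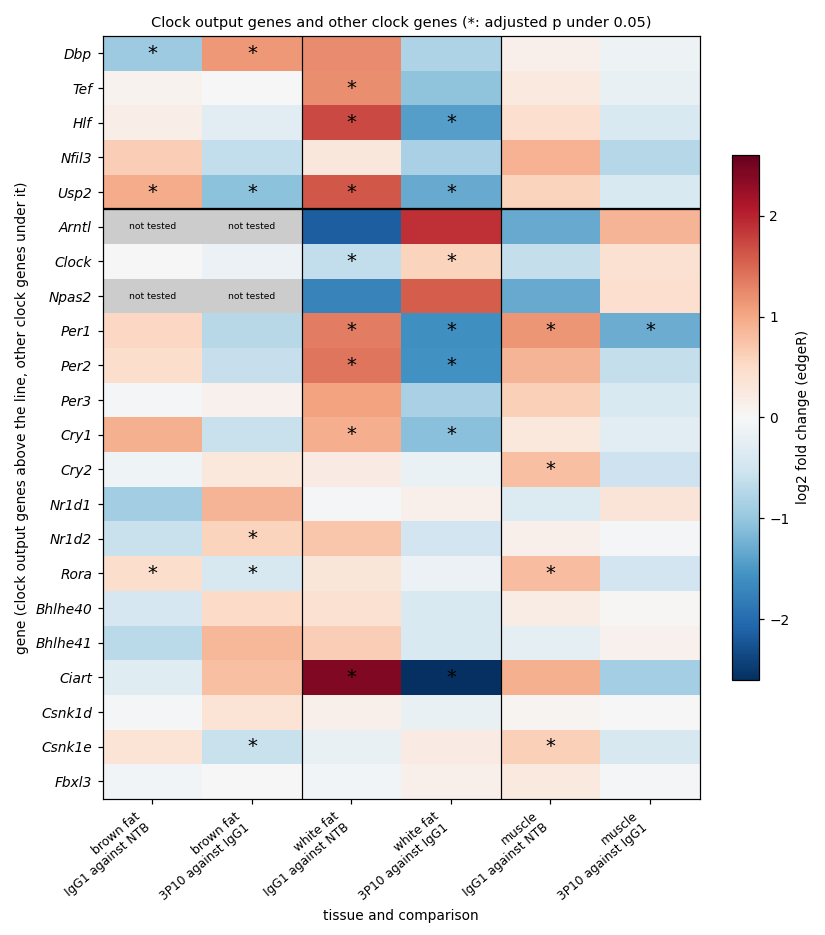
Log2 fold change (edgeR) of the 5 output genes and 17 other clock genes in IgG1 against NTB and 3P10 against IgG1 in each tissue, with a star where the adjusted p was under 0.05. White fat shows 3 and 2 stars among the 5 output genes and 5 in each comparison among the others. Of all white fat genes, 8.64% and 7.42% were called in these comparisons.

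Genes that PAR factors control in mouse liver or brain were read from a list of 10. In white fat 5 were tested, and 3 rose in IgG1 against NTB: Cyp2b10, a xenobiotic cytochrome P450, by 4.54 (SE 1.104), Por, the P450 reductase, by 0.86 (SE 0.18), and Pdxk, pyridoxal kinase, by 0.40 (SE 0.10). The same 3 fell in 3P10 against IgG1, with values of -4.42, -0.85 and -0.40. Over all white fat genes, 8.64% were called in the first of these comparisons and 7.42% in the second. Cyp2b10 ranged over 0.155 to 1.38 CPM in 3P10, 0.844 to 32.3 CPM in IgG1 and 0.202 to 1.31 CPM in NTB, and the 2 IgG1 libraries highest in Ucp1 were those at 31.9 and 32.3 CPM. Without them Cyp2b10 gave 0.76 (adjusted p = 0.586) and -0.64 (adjusted p = 0.670), Por 0.92 (adjusted p = 0.0558) and -0.92 (adjusted p = 0.0853), and Pdxk 0.32 (adjusted p = 0.0935) and -0.31 (adjusted p = 0.135), each first for IgG1 over NTB and then for 3P10 over IgG1. In brown fat 5 were tested: Cyp2b10 rose by 5.09 (SE 0.67, adjusted p = 4.87e-04) in IgG1 against NTB, while for 3P10 over IgG1 it fell by 6.36 and Ppara, a fatty acid receptor gene, rose by 0.94. Over all brown fat genes, 2.97% and 11.6% were called in these comparisons. Cyp2b10 of IgG1 and NTB overlapped, with 9.94 CPM in IgG1 replicate 2 and 25.9 CPM in NTB replicate 4. The 3P10 libraries held 1 to 9 reads of it, so the size of the fall rests on very low counts. In muscle 4 were tested, and Alas1, which starts heme synthesis, fell by 0.65 (SE 0.11, adjusted p = 0.00381) in IgG1 against NTB. There 5.60% of all genes were called.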

How the data were processed

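RNA from 3 tissues was sequenced in 47 libraries. Per the labels, QuantSeq, a 3-prime kit with unique molecular identifiers, was used for brown fat and a directional kit for white fat and muscle. The deposited values are raw counts per gene symbol. The submitters' processing notes name the build mm9 and, with no order, the tools edgeR 3.22.3, featureCounts 1.6.2, STAR 2.6.0a and Trim Galore. The annotation, the strand setting and the use of the identifiers are not given in the sources used here.

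Each tissue was fitted with R 4.3.3 and edgeR 4.0.16 (quasi-likelihood, TMM, filterByExpr with minimum count 10 and minimum total 15), with the 3 groups in 1 model. Tests were two-sided, with calls made under 0.05 after Benjamini-Hochberg adjustment across the genes of the tissue and comparison. Labels give separate samples and nothing on what they replicate, so p measures the spread between samples, which may be partly technical. CPM uses the library total times the TMM factor. A count of 0 allows up to 3 reads, which in CPM is 1.24 to 3.63 (brown fat), 0.0394 to 0.161 (white fat) and 0.0838 to 0.143 (muscle), for counting error only. Alternatives were DESeq2 1.42.0, RLE factors, other filters, the compared groups alone, a replicate block, a muscle marker score, subsets and terms of the library number, and leaving out libraries. Likeness used log2 CPM with a prior count of 2 and candidates of at least 5 CPM on average. Named genes were all 5 members, the 5 most and 3 least alike genes per tissue, and up to 4 called genes per list and comparison, with Arntl, Per1, Per2, Nr1d1 and Ciart in any case. The fits were tested on simulated data. One gene of the clock gene list is not reported here. The members and lists were chosen with earlier results of these data known.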

Additional observations from a re-analysis of the deposited data

Results flagged for a closer look

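In 8 of 45 groups of libraries, 1 library lay farther from the others than Dixon's 95% limit. Chance does this in about 1 in 20 independent groups of normally spread values. Here the values were CPM without a log and the 5 genes share their libraries, so that rate is only a rough guide. White fat IgG1 replicate 4 was the high library for 3 genes, with 74.7 CPM of Hlf (next 44.3), 39.9 CPM of Nfil3 (next 14.3) and 83.3 CPM of Usp2 (next 39.6). The same library held the skin keratin RNA and the deepest sequencing. White fat 3P10 replicate 3, which is number 3, was high in Nfil3 at 13.3 CPM (next 7.94). Muscle 3P10 replicate 3, of the same number, was low in Usp2 at 173 CPM (next 221). Muscle IgG1 replicate 1 was high in Tef at 462 CPM (next 330.2). Brown fat IgG1 replicate 5 was low in Hlf at 153 CPM (next 219.7). Brown fat NTB replicate 4 was high in Usp2 at 142 CPM (next 71.4).

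Dbp had values of opposite sign in the 2 fat tissues. All 5 IgG1 libraries lay below the NTB mean in brown fat, with a log2 fold change of -0.94, and all 5 lay above it in white fat, with 1.24. The difference between both tissues was not tested, since their kits and tables differ, and the white fat value alone did not pass its test.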

How the results depend on the processing

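Brown fat libraries held 4 to 34 reads of Nfil3 and 12 to 201 of Dbp, so small differences there were not detectable. Apart from leaving out single libraries, 511 values of the 5 genes kept their sign and their side of the threshold, 20 lost a call, 13 gained one and 26 changed sign. Leaving out 1 library gave 854, 30, 6 and 40. The linear library number, the sets of neighbouring numbers, the subset numbered 5 or higher, and leaving out the 2 Ucp1-high libraries in the linear-number fit and in the difference between tissues were added after seeing the data. Where a value changed, the cause was not tested.

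Of 5 genes, calls in brown fat IgG1 against NTB went to 1, from 2, with the compared groups alone, the replicate block or the muscle marker score. Over all genes these fits called 154 of 8287, 164 of 8711 and 101 of 8711. The main fit, which had the group as its only term, called 259 of 8711. In white fat IgG1 against NTB, calls of the 5 went to 1, from 3, in 3 fits. These took libraries numbered 12 or lower, took those numbered 5 or higher, or left out the 2 libraries highest in Ucp1. Over all genes they called 84 of 14503, 193 of 14654 and 93 of 14620, against 1245 of 14402 in the main fit. In white fat 3P10 against IgG1, calls of the 5 went to 0, from 2, with the compared groups alone, with libraries numbered 12 or lower or without those 2 libraries. Over all genes these fits called 105 of 14099, 0 of 14503 and 15 of 14620, against 1068 of 14402 in the main fit. With the replicate block or the neighbouring sets, calls of the 5 went to 1, beside 1013 and 244 of 14402 genes. In muscle IgG1 against NTB, calls of the 5 went to 2, from 0, with DESeq2, the term for numbers 14 or higher or the neighbouring sets. Over all 13283 genes these fits called 1326, 2455 and 1688, against 744 in the main fit. With libraries numbered 12 or lower, calls of the 5 went to 1, beside 876 of 13434 genes. DESeq2 called 1 difference between white fat and muscle in IgG1 against NTB, where edgeR called 0. Over all 14898 genes DESeq2 called 556 there and edgeR 166. With group means removed, 3 of the 5 genes most like Dbp, Tef and Hlf in brown fat were shared. Leaving out 1 library gave 0 to 2 calls in brown fat IgG1 against NTB, 1 to 3 in white fat IgG1 against NTB, 0 to 3 in white fat 3P10 against IgG1, 0 to 1 in muscle IgG1 against NTB and 0 to 1 for the difference between white fat and muscle. Over all genes these fits called 34 to 554 in brown fat and 327 to 1307 in muscle in IgG1 against NTB. In white fat they called 344 to 2354 in IgG1 against NTB and 127 to 2304 in 3P10 against IgG1.

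The deviations of same-numbered replicates from their group means had correlations of -0.60 to 0.56, not over 0.1 in every pair of any comparison, and the labels pair none, so the samples share only a number and the replicate block is no paired analysis. It gave Dbp -0.88 (adjusted p = 0.105) in brown fat IgG1 against NTB, Tef 1.28 (adjusted p = 0.0529) in white fat IgG1 against NTB and Hlf -1.50 (adjusted p = 0.0551) in white fat 3P10 against IgG1.

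Signs changed as follows. In brown fat 3P10 against IgG1, Tef was -0.0040 with DESeq2, -0.0041 with RLE factors, -0.0067 with the compared groups alone and -0.0495 with the replicate block, and Nfil3 was -0.34 in 3P10 against NTB with the muscle score. White fat Nfil3 in IgG1 against NTB was -1.09 with libraries numbered 12 or lower, -0.11 with the term for 14 or higher, -0.27 with the neighbouring sets, -0.89 without the 2 Ucp1-high libraries, -0.13 with the linear number and -0.68 with both. In 3P10 against IgG1 it was 0.39 with libraries numbered 12 or lower, 0.33 without the 2 and 0.34 with the linear number besides. With libraries numbered 5 or higher, white fat Tef in 3P10 against NTB was -0.0727, and in muscle Dbp was -0.24 in IgG1 against NTB, and Dbp, Tef and Hlf were -0.31, -0.0924 and -0.22 in 3P10 against NTB. For the difference between white fat and muscle, Nfil3 was 0.22 in IgG1 against NTB (5 or higher) and, in 3P10 against IgG1, 0.61 (12 or lower), 0.19 (replicate block of the shared number), 1.05 (without the 2 libraries) and 1.03 (without them, DESeq2). In 3P10 against NTB, Tef was -0.0048 (5 or higher) and Usp2 -0.0990 (12 or lower).

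Leaving out 1 library turned the sign within these ranges. In muscle Dbp ran from -0.36 to 0.0673 in 3P10 against IgG1, -0.25 to 0.52 in 3P10 against NTB and -0.0671 to 0.62 in IgG1 against NTB. For 3P10 over NTB Hlf ran from -0.14 to 0.20 and Tef from -0.0514 to 0.22. In brown fat Nfil3 ran from -0.24 to 0.18 and Usp2 from -0.20 to 0.18 in 3P10 against NTB, and Tef from -0.0405 to 0.0371, -0.0078 to 0.17 and -0.0077 to 0.17 in 3P10 against IgG1, 3P10 against NTB and IgG1 against NTB. In white fat Nfil3 ran from -0.52 to 0.66 in IgG1 against NTB and Tef from -0.0224 to 0.40 in 3P10 against NTB. Between white fat and muscle Nfil3 ran from -0.38 to 0.39 in 3P10 against IgG1, and Tef from -0.0105 to 0.20 and Usp2 from -0.0212 to 0.22 in 3P10 against NTB.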
